A study of Mus musculus with 3 samples.

Results

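The genes described here encode 46 subunits and motor enzymes of the ATP-dependent chromatin remodelling complexes of the mouse: 27 of the SWI/SNF (BAF) complexes, 5 of the ISWI complexes, 9 CHD proteins and 5 INO80-type or related enzymes. They were chosen by name, as members of these families, because the study ties Isl1 to Brg1 (Smarca4) and to Baf60c (Smarcd3), and what was looked up for each was whether, where and over what length a peak of Isl1 occupancy was assigned to it. Of the 46 genes, 33 carried at least 1 peak, 52 peaks in all out of the 14082 distinct peaks and 9313 gene names of the list.

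Occupancy was measured by ChIP-Seq, in which DNA pulled down together with a crosslinked protein is sequenced. The cells were cardiac progenitor cells (CPCs) at day 5 of directed differentiation of a single mouse embryonic stem cell (ESC) line, E14 Tg(Nkx2-5-EmGFP), which carries a green fluorescent reporter transgene of the early cardiac gene Nkx2-5. There were 2 Isl1 ChIP replicates, made with a DSHB antibody, and 1 input, and neither the labels nor the methods say that the chromatin came from sorted cells. The authors combined both replicates into the list of peaks, so no error between replicates exists for any value below, the read depth is unknown, and a peak is present or absent with a position and a width but no height. The labelled cell type could not be checked against marker expression, since the list holds none.

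SWI/SNF, ISWI, CHD and INO80-type complexes use the energy of ATP to slide, evict or exchange nucleosomes. A SWI/SNF complex is built around 1 of the ATPases Brg1 and Brm on a scaffold of core subunits, and which paralogue of each subunit is incorporated changes with lineage: Baf60c and Baf45c are known from heart and muscle, Baf45b and Baf53b from neurons. Isl1 itself is a LIM-homeodomain factor of the second heart field, the progenitor pool that gives rise to the outflow tract and right ventricle.

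Peaks were assigned by the authors to the closest transcription start site (TSS), with a signed distance that was negative upstream and positive downstream in the direction of the gene. An assigned peak was found at 71.7% of the 46 genes, and at 39.0% of the 21031 protein-coding genes. Assigned peaks within 1 kb were found at 30 genes, or 65.2%, against 24.2% of protein-coding genes. There were 9 genes with 2 or more peaks, or 19.6% against 11.0%. Both of the first shares stood well above those of protein-coding genes as a whole, but the genes were a chosen list and promoters of this kind differ from the average promoter, as described below, so nothing particular to remodelling genes is read from these counts.

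**Figure D1:**
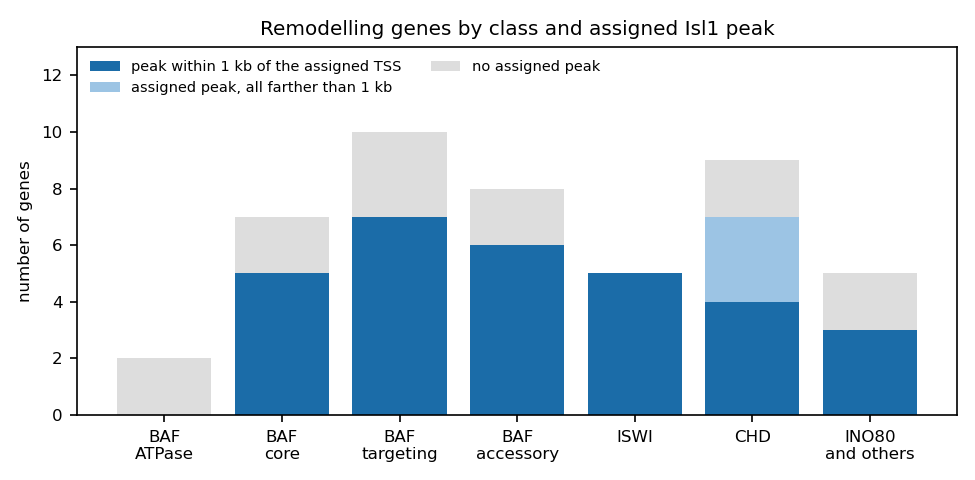
Number of genes (vertical axis) in each of the 7 classes of remodelling genes, divided into those with an Isl1 peak within 1 kb of the start site (dark blue), those with peaks farther away alone (light blue) and those with no assigned peak (grey). The 2 BAF ATPase genes have none, and all 5 listed ISWI genes have a peak within 1 kb.

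By class, the counts ran from none to all. Neither of the 2 BAF ATPase genes had a peak, whereas 5 of 7 core subunit genes, 7 of 10 targeting subunit genes, 6 of 8 accessory subunit genes, 5 of 5 ISWI genes, 7 of 9 CHD genes and 3 of 5 INO80-type and related genes had one. In all classes but CHD, every gene with a peak had one within 1 kb. Of the 7 CHD genes with a peak, 4 had one within 1 kb, and Chd4, Chd8 and Chd9 had assigned peaks farther away alone. The share with a peak was 71.7% over the 46 genes and 39.0% over all protein-coding genes. The classes hold few genes each, and no difference between them was tested.

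The ATPase genes come first, since each complex is built around its motor. Smarca4, which encodes Brg1, had no assigned peak, and the nearest peak of the list lay 69295 bp upstream of its closest annotated TSS and was assigned to Carm1. The paper, however, shows Smarca4 as an example of a gene whose Isl1 binding sites were less accessible in embryos without Isl1. It also mapped Isl1 in embryos, which the list used here does not cover. Smarca2, which encodes the alternative ATPase Brm, had its nearest peak 465429 bp downstream, assigned to Vldlr. Both promoters were rich in CpG. The ratio of observed to expected CpG over 500 bp to either side of the TSS was 0.848 at Smarca4 and 0.922 at Smarca2, against a median of 0.911 over the remodelling genes with a peak there. Sequences of 150 bases next to the start sites are shown for comparison with the bound promoters further on. They are read on the strand of the gene from mm9, in lower case, with the GC box GGGCGG (or CCGCCC, the same on the other strand) and the homeodomain core TAAT (or ATTA) in capitals, and this holds for every sequence below.
Smarca4 promoter without a peak, chr9:21420463-21420612, plus strand: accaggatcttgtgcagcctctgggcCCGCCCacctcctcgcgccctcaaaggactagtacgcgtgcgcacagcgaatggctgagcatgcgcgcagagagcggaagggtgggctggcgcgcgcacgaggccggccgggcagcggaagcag
Smarca2 promoter without a peak, chr19:26681610-26681759, plus strand: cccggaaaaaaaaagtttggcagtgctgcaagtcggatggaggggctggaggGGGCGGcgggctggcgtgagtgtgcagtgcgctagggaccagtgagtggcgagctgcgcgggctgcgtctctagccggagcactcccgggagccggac
Each stretch held 1 GC box and no TAAT, with 17 CpG at Smarca4 and 13 at Smarca2.

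Smarcd3 encodes Baf60c, the heart and skeletal muscle form of the Baf60 subunit that links the complex to transcription factors. It carried 2 peaks. The peak at chr5:24107139-24108502 was 1363 bp wide, had a deposited distance of 0 bp and its midpoint lay in the UTR of the gene, so that it reached from 682 bp upstream to 681 bp downstream of the start site. A second, narrower peak at chr5:24110244-24111085 covered 841 bp of intergenic sequence, 2844 bp upstream, and was separated from the first by 1742 bp. It was the more GC-rich of the pair, with 78.5% GC in the central 200 bp against 67.0%.
Smarcd3 start site, chr5:24107831-24107980, minus strand: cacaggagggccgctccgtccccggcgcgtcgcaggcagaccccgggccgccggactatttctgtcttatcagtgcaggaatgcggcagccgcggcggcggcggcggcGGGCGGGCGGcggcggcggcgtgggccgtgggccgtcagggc
Smarcd3 upstream peak, chr5:24110589-24110738, minus strand: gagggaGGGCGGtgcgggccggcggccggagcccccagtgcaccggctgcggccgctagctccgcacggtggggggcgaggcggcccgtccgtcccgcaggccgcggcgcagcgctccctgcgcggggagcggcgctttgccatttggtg
The stretch at the start site held 2 overlapping GC boxes in a GCG-repeat and 25 CpG, and that in the upstream peak held 1 GC box and 23 CpG. Neither contained TAAT.

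The paralogues of Smarcd3 had peaks too, so that all 3 Baf60 genes had one within 1 kb of the start site. The share with such a peak was 65.2% over the 46 genes and 24.2% over all protein-coding genes, and no pattern is read from 3 genes. Smarcd1 (Baf60a) had a peak of 876 bp at chr15:99532365-99533241, 85 bp downstream, and a TSS of the gene model Gm17349 also lay within 1 kb of its midpoint. The stretch below begins at the ATG of its coding exon and carries 2 GC boxes and 20 CpG.
Smarcd1 coding exon, chr15:99532753-99532902, plus strand: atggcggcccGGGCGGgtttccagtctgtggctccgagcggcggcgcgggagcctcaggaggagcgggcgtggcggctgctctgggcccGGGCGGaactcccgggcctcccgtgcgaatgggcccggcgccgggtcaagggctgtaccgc
A second Smarcd1 peak of 891 bp at chr15:99538274-99539165 lay in an intron 6001 bp downstream, over sequence with a median copy number of 2 for 31 bases, and of 1 over the central 400 bp or for 75 bases. Smarcd2 (Baf60b) had a single peak of 1270 bp at chr11:106133513-106134783, 138 bp downstream, with its midpoint in the UTR. Among the 3 paralogues, Smarcd3 alone had a peak upstream of its promoter within 10 kb, and Smarcd1 alone one downstream.

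The other core subunits divided. Smarcc2 (Baf170), a scaffold on which the complex assembles, had a peak of 1465 bp at chr10:127895526-127896991 with its midpoint 34 bp upstream of the TSS and a GC content of 85.0% at its centre. Its paralogue Smarcc1 (Baf155) had no peak, and the nearest was 113437 bp downstream, assigned to Cspg5. Smarce1 (Baf57), a DNA-binding core subunit, had a peak of 1167 bp at chr11:99091323-99092490, 425 bp downstream. Smarcb1 (Baf47), the tumour suppressor among the core subunits, had none, the nearest being 10768 bp upstream at Mmp11.

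The targeting subunits, which distinguish canonical BAF from the PBAF and non-canonical forms, held the widest peaks. Arid1a and Arid1b encode the mutually exclusive Baf250 subunits of canonical BAF. The Arid1b peak at chr17:4993822-4996978 was 3156 bp wide, the widest of the 52, and was centred 326 bp downstream in a coding exon. The Arid1a peak at chr4:133307748-133310818 was 3070 bp wide, 243 bp downstream, also centred in a coding exon. Arid2 (Baf200), which takes their place in PBAF, had a peak of 2328 bp at chr15:96116776-96119104, 13 bp upstream. Among all 5416 peaks within 1 kb of a TSS, these widths stood at the percentiles 99.8, 99.7 and 98.5. The promoter-side sequence of Arid1a and Arid2 shows GC-rich DNA next to start sites under such peaks, with more pyrimidines on the printed strand at Arid2.
Arid1a promoter, chr4:133309527-133309676, minus strand: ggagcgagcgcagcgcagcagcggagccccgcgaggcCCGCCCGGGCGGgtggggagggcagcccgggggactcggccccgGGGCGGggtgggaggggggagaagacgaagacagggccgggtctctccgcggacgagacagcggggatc
Arid2 promoter, chr15:96117803-96117952, plus strand: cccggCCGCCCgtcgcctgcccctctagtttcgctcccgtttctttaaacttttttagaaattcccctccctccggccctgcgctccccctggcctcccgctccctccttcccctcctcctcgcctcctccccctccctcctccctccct
The Arid1a stretch held 3 GC boxes and 19 CpG at 79.3% GC, and the Arid2 stretch held 1 and 10 at 66.7% GC.

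Of the remaining PBAF genes, Pbrm1 and Brd7 had a peak at the start site and Phf10 did not. Pbrm1 (Baf180, polybromo), which reads acetylated histones, had a peak of 1042 bp at chr14:31831965-31833007, 162 bp downstream in an intron, and the TSS of the neighbouring gene Gnl3 also lay within 1 kb of its midpoint. At 85.5%, its central GC content was the highest of the 52 peaks, and 150 bases of it held 9 GC boxes, overlapping ones included, and 26 CpG.
Pbrm1 intron, chr14:31832480-31832629, plus strand: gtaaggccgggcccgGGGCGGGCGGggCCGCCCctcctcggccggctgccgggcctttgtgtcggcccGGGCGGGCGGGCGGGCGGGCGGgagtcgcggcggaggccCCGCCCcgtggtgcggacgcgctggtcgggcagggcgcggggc
Brd7, the bromodomain subunit of PBAF, had a peak of 921 bp at chr8:90885398-90886319, 232 bp downstream. Phf10 (Baf45a) had none, the nearest being 268230 bp upstream, and its promoter had the highest CpG ratio of the genes without an assigned peak, 0.983. Brd9, the bromodomain subunit of non-canonical BAF, had none within 78521 bp.

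The Baf45 genes Dpf1, Dpf2 and Dpf3 encode alternative histone-reading subunits. Dpf1 (Baf45b), best known from neurons, had 5 peaks. Those at chr7:30088635-30089497 (862 bp wide, 42 bp downstream) and chr7:30089734-30090303 (569 bp, 994 bp downstream) were 237 bp apart, and the third, of 748 bp at chr7:30092616-30093364, was deposited at 3966 bp downstream but lay 41 bp from another annotated start site of Dpf1. The other two, of 414 bp at chr7:30116198-30116612 and 558 bp at chr7:30141844-30142402, fell in a coding exon and an intron of the adjacent gene Sipa1l3, 27381 and 53099 bp from the assigned start. Dpf3 (Baf45c), a subunit with a role in heart and muscle, had a peak of 1612 bp at chr12:84827016-84828628, 864 bp downstream of the assigned TSS. The annotation used here has no start site of Dpf3 there, the closest being 375940 bp away, so the position rests on the authors' annotation. Its centre was the least GC-rich of the peaks within 1 kb, at 58.0%, and it was 1 of 2 of them with a TAAT in the central 300 bp. Dpf2 (Baf45d), the widely expressed paralogue, had no peak, the nearest being 18775 bp downstream at Tigd3.

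**Figure D2:**
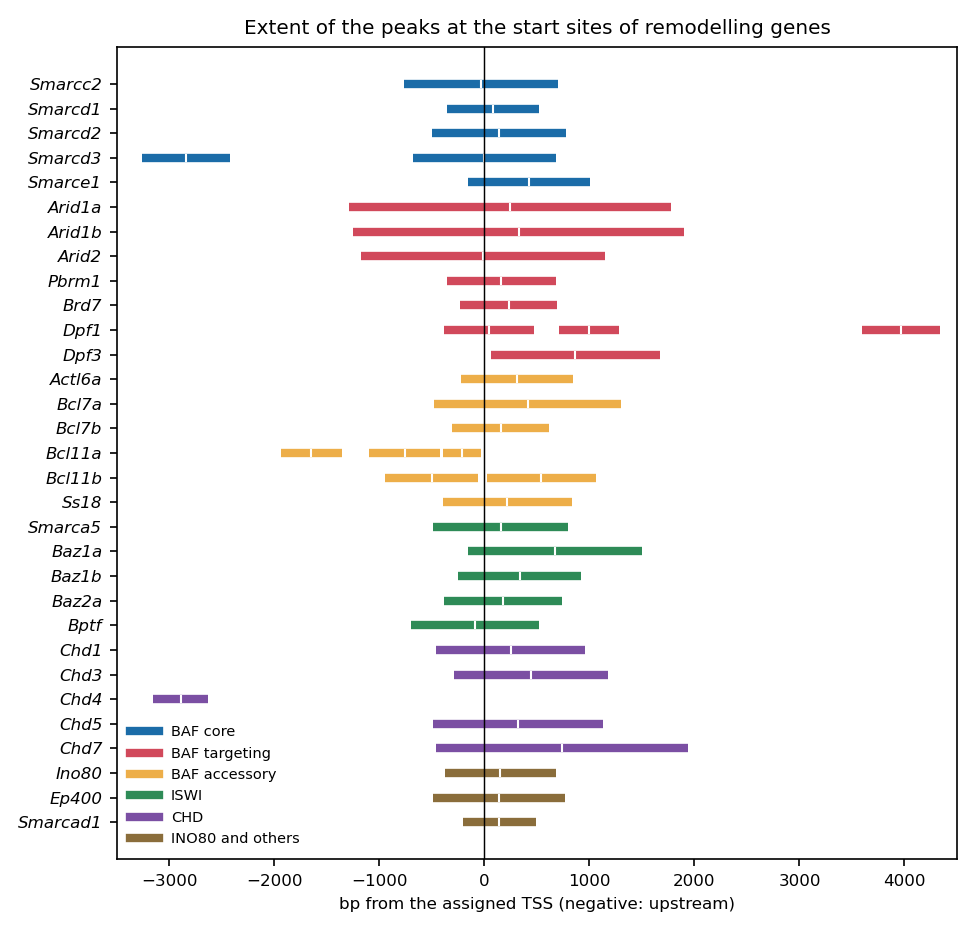
Each bar is a peak drawn from its start to its end relative to the assigned TSS (horizontal axis, bp, negative upstream; vertical line at 0), for the 31 remodelling genes (rows, coloured by class) with a peak inside the range drawn, with a white tick at the midpoint. Most bars cross the start site and extend farther downstream than upstream, those of Arid1a and Arid1b are longest, and Bcl11a and Bcl11b have several short bars in place of 1 that crosses it.

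Of the accessory subunit genes, Actl6a (Baf53a, an actin-related protein of proliferating progenitors) had a peak of 1061 bp at chr3:32607247-32608308, 309 bp downstream. Its neuronal paralogue Actl6b (Baf53b) had none within 42794 bp, and its promoter had the lowest CpG ratio of the genes without an assigned peak, 0.610. Bcl7a had a peak of 1780 bp at chr5:123793977-123795757, 410 bp downstream in an intron, with the TSS of the noncoding gene model Gm15860 within 1 kb. Bcl7b had a peak of 918 bp at chr5:135643937-135644855, 154 bp downstream in a coding exon. The third BCL7 gene, Bcl7c, had none, the nearest being 8166 bp upstream at Ctf1. Ss18, the subunit fused to SSX in synovial sarcoma, had a peak of 1230 bp at chr18:14840592-14841822, 216 bp downstream.

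Bcl11a and Bcl11b, zinc-finger proteins found in BAF complexes of the blood and nervous system, differed in layout from the rest. At Bcl11a, 3 narrow peaks of 587, 679 and 362 bp (chr11:23976114-23976701, chr11:23976955-23977634 and chr11:23977660-23978022) lay 1649, 762 and 215 bp upstream, separated by 254 and 26 bp. None covered the annotated TSS of Bcl11a, and the noncoding model Gm12063 had a TSS within 1 kb of the midpoints of the 2 farther ones. The peak of 362 bp was the narrowest of the 52, at the percentile 0.0923 of widths within 1 kb. At Bcl11b, peaks of 889 bp (chr12:109241683-109242572, 503 bp upstream) and 1035 bp (chr12:109240564-109241599, 543 bp downstream) were separated by 84 bp around the assigned TSS. A peak of 1384 bp at chr12:109217880-109219264 lay in an intron 23052 bp downstream, and a broad one of 2270 bp at chr12:109153485-109155755 over a coding exon 87004 bp downstream. The latter was the only peak of at least 2000 bp among the 19 that were farther than 1 kb from the start.

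All 5 listed ISWI genes had an assigned peak within 1 kb, whereas Smarca1, the other ISWI ATPase, was not on the list and had none there. The share with such a peak was 65.2% over the 46 genes and 24.2% over all protein-coding genes, and no pattern is read from 5 genes. Smarca5 (Snf2h), the listed ISWI ATPase, had one of 1289 bp at chr8:83262558-83263847, 156 bp downstream in the UTR. It was the only multi-copy peak within 1 kb, with a median copy number of 3 for stretches of 31 bases and of 1 for stretches of 75, and the effect of copy number on the peak was not tested. The other listed genes encode partner subunits of ISWI complexes, and all but Baz2a had a peak that covered an annotated start site. Baz1a (Acf1) had a peak of 1661 bp at chr12:56085821-56087482, 672 bp downstream, with the model Gm20403 starting within 1 kb. Baz1b (WSTF), deleted in Williams syndrome, had one of 1167 bp at chr5:135662944-135664111, 334 bp downstream in a coding exon. Baz1b and Bcl7b are neighbours, 5409 bp apart, and each had its own peak. Bptf, the large subunit of NURF, had one of 1218 bp at chr11:106992718-106993936, 91 bp upstream, with 82.0% GC at the centre. Baz2a (Tip5), which takes part in silencing ribosomal RNA genes, had 2 intronic peaks, of 1128 bp at chr10:127529450-127530578 and 1038 bp at chr10:127533567-127534605, deposited at 175 and 4247 bp downstream. By the annotation used here these lay 1323 and 5395 bp from the closest start site of Baz2a, which also has an annotated start under a peak of 1345 bp that the list assigns to Ptges3 (chr10:127495433-127496778).

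Among the CHD genes, Chd1, the ATPase linked to open chromatin of stem cells, had a peak of 1425 bp at chr17:15841468-15842893, 249 bp downstream, and its paralogue Chd2 had none within 16476 bp. The NuRD ATPase genes differed in where the assigned peak lay. Chd3 had a peak of 1470 bp at chr11:69181747-69183217, 446 bp downstream in an intron, and Chd5 had one of 1613 bp at chr4:151712271-151713884, 317 bp downstream in a coding exon. The peak assigned to Chd4, of 523 bp at chr6:125042846-125043369, lay 2892 bp upstream over sequence with a median copy number of 184.5 for 31 bases, which was 2 over the central 400 bp and 1 for 75 bases. A wider single-copy peak of 1733 bp at chr6:125045765-125047498 had its midpoint 44 bp downstream of an annotated TSS of Chd4, in the UTR, but the list assigned it to the microRNA gene Mir7045. Counted by position, therefore, all 3 NuRD ATPase genes had a peak at a start site. By position the share was 67.4% over the 46 genes and 26.1% over annotated protein-coding genes, and no pattern is read from 3 genes.

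Chd7, mutated in CHARGE syndrome, which includes heart defects, had 5 peaks, as many as Dpf1. The broadest, of 2393 bp at chr4:8617095-8619488, was deposited at 738 bp downstream and covered the TSS, and its width stood at the percentile 98.8 of peaks within 1 kb. Peaks of 530 bp at chr4:8569071-8569601 and 680 bp at chr4:8574207-8574887 lay 48217 and 43006 bp upstream in intergenic sequence. Another of 725 bp at chr4:8678799-8679524, in a coding exon, was 61608 bp downstream but 576 bp from an internal annotated start site, and the fifth, of 976 bp at chr4:8838240-8839216, lay past the gene, 221175 bp downstream. Chd8, also a gene of developmental disorders, had a single peak of 935 bp that was 20228 bp upstream. Chd9 had a single peak of 1627 bp, 23623 bp upstream of the assigned TSS but inside an intron of the annotated Chd9, where the model Gm6658 has a start site within 1 kb. Chd6 had no assigned peak, and none lay within 66227 bp of its annotated protein-coding start sites. The nearest, a multi-copy peak at chr2:160811639-160812536, lay inside the annotated Chd6 gene but was assigned to Emilin3.

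The distal peaks were of very different sequence, which the 2 upstream peaks of Chd7, 4606 bp apart, show side by side with distal peaks of Arid1a and Arid1b and the upstream peak of Chd4.
Chd7, 43006 bp upstream, chr4:8574472-8574621, plus strand: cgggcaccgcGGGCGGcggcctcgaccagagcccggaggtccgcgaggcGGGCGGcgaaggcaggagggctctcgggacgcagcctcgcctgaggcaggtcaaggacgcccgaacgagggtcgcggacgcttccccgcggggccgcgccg
Chd7, 48217 bp upstream, chr4:8569261-8569410, plus strand: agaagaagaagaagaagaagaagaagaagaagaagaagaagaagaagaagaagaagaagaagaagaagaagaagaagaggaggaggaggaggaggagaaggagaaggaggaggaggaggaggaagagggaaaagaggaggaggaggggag
Arid1a, 49705 bp upstream, chr4:133359156-133359305, minus strand: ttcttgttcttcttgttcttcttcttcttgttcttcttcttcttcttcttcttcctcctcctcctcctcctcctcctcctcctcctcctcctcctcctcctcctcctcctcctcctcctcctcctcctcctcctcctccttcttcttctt
Arid1b, 145457 bp downstream, chr17:5140456-5140605, plus strand: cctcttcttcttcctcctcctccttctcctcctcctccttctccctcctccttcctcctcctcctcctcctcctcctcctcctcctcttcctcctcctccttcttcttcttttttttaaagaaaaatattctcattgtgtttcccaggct
Chd4, 2892 bp upstream, chr6:125043032-125043181, plus strand: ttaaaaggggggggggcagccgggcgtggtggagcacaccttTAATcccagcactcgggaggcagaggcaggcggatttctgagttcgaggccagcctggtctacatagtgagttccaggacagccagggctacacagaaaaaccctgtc
The peak of Chd7 at 43006 bp upstream was as CpG-rich as a promoter, with 26 CpG and 2 GC boxes in 150 bases, a CpG ratio of 0.943 over its length and a copy number of 1. That at 48217 bp upstream was made of GAA and GGA repeats with no CpG, had purines at 100% of its central 200 bases and a median copy number of 891.5 for 31 bases, which was 2 over the central 400 bp and 1 for 75 bases. The Arid1a peak 49705 bp upstream (chr4:133358929-133359534, 605 bp) was likewise made of short repeats, 97.5% pyrimidine, with a copy number of 1424.5, or 754 over the central 400 bp and 58.5 for 75 bases, while the next Arid1a peak (chr4:133369110-133370699, 1589 bp, 60378 bp upstream) was single-copy with 71.5% GC at its centre and a CpG ratio of 0.906. The intronic Arid1b peak (chr17:5140249-5140814, 565 bp) had a copy number of 1 by 31 bases, yet 86.0% of its central 200 bases were pyrimidines and it held no CpG. The Chd4 stretch held 1 TAAT, 5 CpG and no GC box, in sequence with a median copy number of 184.5 for 31 bases, or 2 over the central 400 bp. Its TAAT is a string in repeated sequence and not a shown site. The share of pure purine or pyrimidine runs (at least 90% of the central 200 bases, a limit chosen after these sequences were seen) was 2 of the 13 remodelling peaks beyond 10 kb, or 15.4%, against 19.0% of all such peaks, and none of the 33 within 1 kb, against 0.369% of all such peaks.

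**Figure D3:**
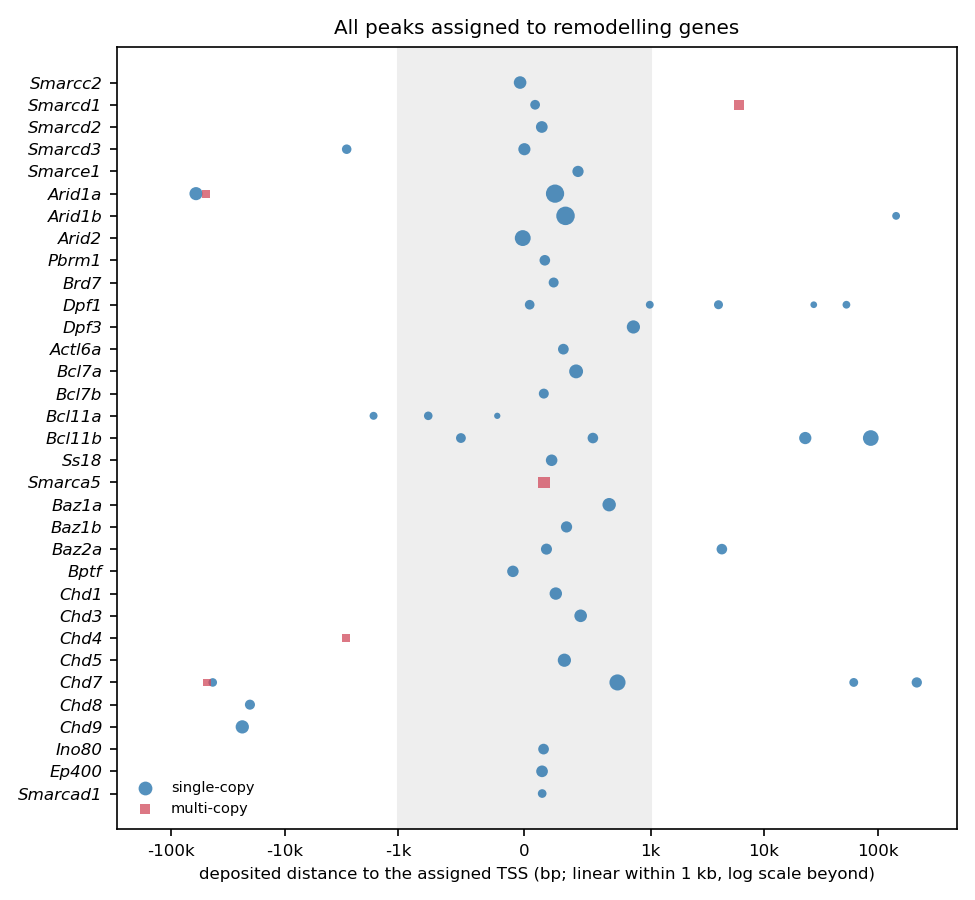
Signed distance from the assigned TSS to each of the 52 peaks (horizontal axis, bp, linear within 1 kb and logarithmic beyond, grey band within 1 kb) for the 33 genes with a peak (rows). The area of a symbol grows with peak width, blue circles are single-copy and red squares multi-copy. Of the 52 peaks, 33 lie in the grey band, 26 of them on its downstream side, and 4 of the 5 multi-copy peaks lie outside it.

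The last class holds ATPases of other remodelling families. Ino80, the motor of the nucleosome-spacing INO80 complex, had a peak of 1058 bp at chr2:119302684-119303742, 152 bp downstream. Ep400, of the TIP60-p400 complex, had one of 1260 bp at chr5:111198966-111200226, 140 bp downstream, with the model Gm15559 starting within 1 kb. Smarcad1 had one of 699 bp at chr6:64992453-64993152, 141 bp downstream, with the other TAAT among the peaks within 1 kb, though none in the 150 bases upstream of its start shown here.
Smarcad1 promoter, chr6:64992511-64992660, plus strand: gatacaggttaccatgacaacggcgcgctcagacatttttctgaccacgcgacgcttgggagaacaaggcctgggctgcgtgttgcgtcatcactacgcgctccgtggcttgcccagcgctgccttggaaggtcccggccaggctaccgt
Srcap, which deposits H2A.Z, had no peak under its name, but a single-copy peak of 1301 bp at chr7:134655351-134656652 lay 460 bp downstream of its TSS, in an intron, and was assigned to 1700008J07Rik. Atrx, mutated in a syndrome of intellectual disability, was the 1 member on chromosome X and had no peak within 214809 bp, and 2.70% of the 927 annotated protein-coding genes of that chromosome had a peak midpoint within 1 kb of a start site.

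Since Chd4 and Srcap had a peak at the start site under another name, the genes were also counted by position. With the midpoint within 1 kb of any annotated TSS, whatever the name, 31 of 46 genes (67.4%) had a peak, against 26.1% of 22232 annotated protein-coding genes. This count gains Chd4 and Srcap and loses Dpf3, whose assigned start is not in the annotation. Of the 13 genes without an assigned peak, Srcap was the 1 that had a peak there under another name.

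Paralogues can be set side by side. Every member had a peak in the families of Smarcd1, Smarcd2 and Smarcd3, of Arid1a and Arid1b, of Bcl11a and Bcl11b, of Baz1a and Baz1b, and of Chd3, Chd4 and Chd5. There was none in the pair of Smarca4 and Smarca2. A single member had one in the pairs of Smarcc1 and Smarcc2, Brd7 and Brd9, Actl6a and Actl6b, Chd1 and Chd2, and Srcap and Ep400, the last by assigned name alone. The remaining families fell between, with 2 of the 3 Baf45 genes Dpf1, Dpf2 and Dpf3, 2 of the 3 BCL7 genes and 3 of the 4 genes from Chd6 to Chd9. The share with a peak was 71.7% over the 46 genes and 39.0% over all protein-coding genes. With families this small, no pattern among paralogues is read from these counts.

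The 33 peaks within 1 kb resembled other promoter peaks in composition. Their central 200 bp had a median GC content of 74.0%, the same as the 74.0% of all 5416 peaks within 1 kb, and in 33 of 33 the centre was richer in GC than both flanks 2 kb away, whose median was 44.8%, as it was in 98.7% of all peaks within 1 kb. The CpG ratio over the peak had a median of 0.870 against 0.819. The midpoint was downstream of the TSS in 26 of 33 (78.8%), against 80.9% of all, and the peak covered an annotated start site of its gene in 27. By annotation, 12 midpoints fell in a UTR, 7 in a coding exon, 1 in a noncoding exon, 8 in an intron and 5 in intergenic sequence. The counts of covered start sites and of these places have no share over all peaks within 1 kb beside them, so no likeness is read from them. At 3.03%, the share at multi-copy sequence (1 peak) was near the 2.62% of all.

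Their widths differed more from those of other promoter peaks. The median was 1218 bp (quartiles 921 and 1470 bp), against 1050 bp (quartiles 835 and 1313 bp) for all peaks within 1 kb. The peaks of at least 2000 bp were those of Arid1a, Arid1b, Arid2 and Chd7, which made 12.1% against 3.53%. No test was made of a chosen list, and these 4 peaks are few. Over all 52 peaks the median width was 1050 bp, with a 95% interval from 891 to 1260 bp that covers sampling of peaks only, and the median of the whole list was 947 bp. Just inside and just outside the limit of 1 kb lay the Dpf1 peak at 994 bp and the Bcl11a peak at 1649 bp.

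**Figure D4:**
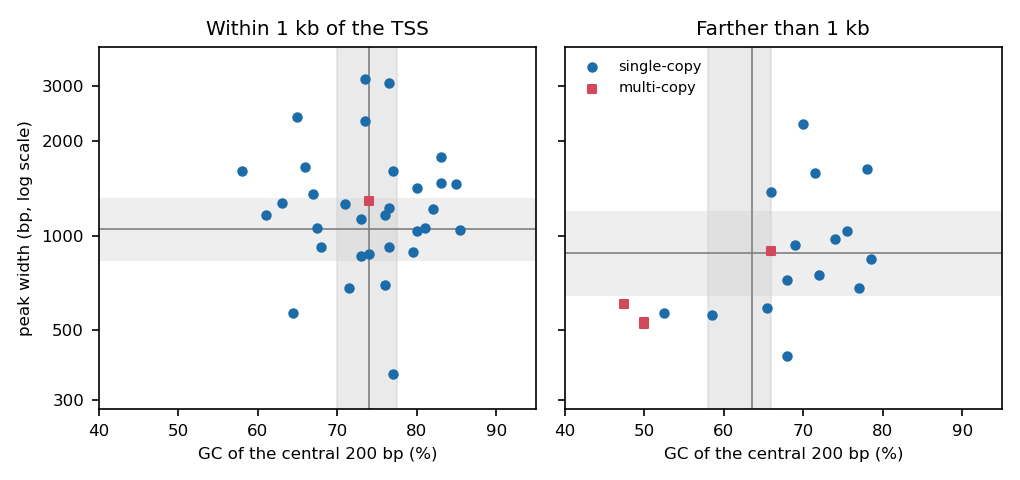
Peak width (vertical axis, bp, log scale) against the GC content of the central 200 bp (horizontal axis, %) for the 33 remodelling peaks within 1 kb of the TSS (left) and the 19 farther away (right), single-copy in blue and multi-copy in red. Grey lines and bands are the median and interquartile range of all peaks within 1 kb (left) and beyond 10 kb (right). On the left the points scatter around both medians with 4 above 2000 bp, and on the right 3 of 4 multi-copy peaks sit at 50.0% GC or less.

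Peaks farther away were fewer than in the list as a whole. Of the 52 peaks, 63.5% were within 1 kb, 11.5% between 1 and 10 kb and 25.0% beyond, against 38.5%, 10.5% and 51.1% of all peaks. Multi-copy sequence made up 9.62% of the remodelling peaks (5 peaks), against 46.5% of all peaks, and 15.4% of those beyond 10 kb (2 of 13), against 81.2%. The median GC content of all 52 centres was 73.0% (95% interval 68.0% to 76.0%), and 66.5% in the whole list. Like that of the widths, the interval covers sampling of peaks only, and the difference from the whole list was not tested. The overall figures mix distance classes in unlike shares. Within 1 kb the median GC content was 74.0% in both, and multi-copy sequence made up 3.03% against 2.62%. Between 1 and 10 kb the median GC content was 69.0% against 65.5%, and beyond 10 kb it was 68.0% against 63.5%. How far the larger share of promoter peaks sets the overall differences was not tested.

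The central 300 bp of each peak, both strands, was searched for short strings. Among the 33 peaks within 1 kb, GGGCGG occurred in 29 (87.9%), against 79.7% of all peaks within 1 kb. The E-box string CANNTG occurred in 7 (21.2%) against 50.0%, and CCAAT in 3 (9.09%) against 12.6%. The Ets-type string CCGGAAG occurred in 5 (15.2%) against 8.18%, the GATA-type string AGATAA in 1, that of Actl6a (3.03%), against 1.13%, and the Nrf1-type GCATGCGC in none against 1.64%. TAAT, the core of homeodomain sites, occurred in 2 (6.06%), Dpf3 and Smarcad1, against 9.18%. The longer LIM-homeodomain strings CTAATG and CTAATTG occurred in none of the 33, and in 0.923% and 0.240% of all peaks within 1 kb. These strings overlap, since each of the longer ones contains TAAT. Among the 19 peaks farther away, TAAT occurred in 5 (26.3%), against 37.1% of all peaks farther than 1 kb. A match is a string and not a shown site, and 33 peaks are too few to tell shares as low as those of the longer strings from 0.

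The promoters of remodelling genes differed from the average promoter, which bears on the first counts. The CpG ratio over 500 bp to either side of the TSS, taken at the annotated start site with the highest ratio, had a median of 0.893 for the 46 genes and 0.596 for all 22232. Of the 43 remodelling genes with a ratio of at least 0.6, 31 had a peak midpoint within 1 kb of a start site (72.1%), against 48.5% of the 11048 genes with such a promoter. Of the 3 with a lower ratio, Chd8 (0.535), Chd9 (0.466) and Dpf3 (0.277), none had one by the annotation, against 3.94% of the other 11184. Each of these 3 did have an assigned peak. The ratio of Dpf3 was taken at an annotated start site 375940 bp from its peak, since the assigned one is not in the annotation. Those of Chd8 and Chd9 were also taken away from their peaks, at chr14:52833054, inside the annotated Chd8, and at chr8:93352734. Over the assigned peaks themselves the CpG ratio was 0.727 at Chd8, 0.830 at Chd9 and 0.866 at Dpf3. The 3 low ratios therefore do not describe the sequence under these peaks. The share of the remodelling genes stayed above that of all genes with a ratio of at least 0.6, by less than over all genes. Promoters were not matched more closely than by this limit. The lower quartile of the remodelling genes, 0.811, lay above the upper quartile of all 22232 genes, 0.792. How far CpG content goes with the remaining gap was not tested. Within the list, the 31 with a peak had a median ratio of 0.911 and the 15 without had 0.837, and the ranges overlapped, from 0.688 to 1.18 and from 0.277 to 0.983.

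**Figure D5:**
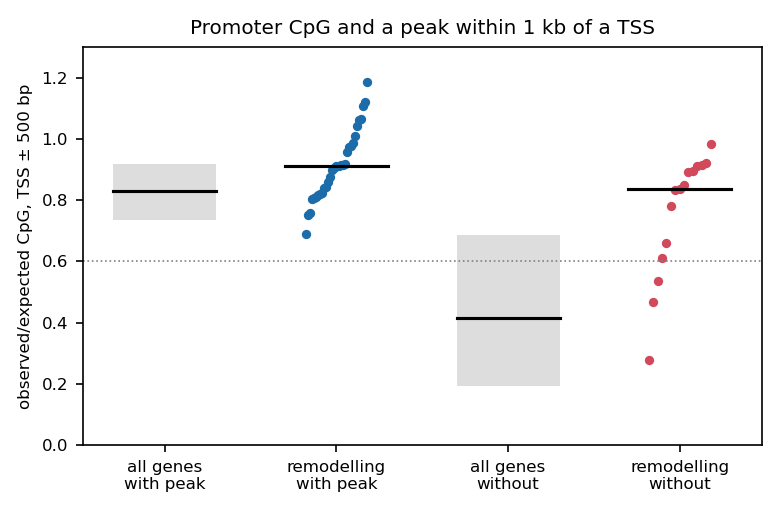
Ratio of observed to expected CpG over the TSS ± 500 bp (vertical axis) for all annotated protein-coding genes (grey boxes, interquartile range with the median as a line) and for each remodelling gene (points, with the median as a line), with and without a peak midpoint within 1 kb of a TSS. The dotted line is the ratio of 0.6, below which 3 remodelling genes lie. None of them has a peak midpoint within 1 kb of an annotated TSS, though each has an assigned peak.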

How the data were processed

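Occupancy was measured in 2 Isl1 ChIP replicates and 1 input of ESC-derived CPCs, grouped by sample title. Per the study's methods, the authors aligned reads to mm9 with bowtie2, removed duplicates with Picard 1.136, called peaks with MACS14 without a fragment model, dropped blacklisted regions, kept areas common to both replicates with bedtools 2.15 and assigned each peak to the closest TSS with HOMER. The deposited values are peak starts and ends and signed distances to the TSS in bp, with no score, count or depth, so precision per peak is unknown, and a region short of the calling threshold in 1 replicate is missing. Reads with several possible positions affect peaks at repeated sequence.

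Repeated lines among the 14165 were counted as 1, which left 14082 peaks. Starts may be off by 1 bp, since the list does not give its base. Symbols were matched to a RefSeq table (9294 of 9313 names, and 46 of 46 members). Positions, start sites and sequence came from the NCBIM37 (mm9) genome with its GENCODE annotation. Copy number was the median genome-wide occurrence of the 31-mers in the central 200 bp, with 2 or more called multi-copy. Scripts ran in Python 3.11.15 (numpy 2.4.6, pandas 2.3.3, numba 0.67.0) and were tested on simulated data.

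No test was applied, because the members and lists were chosen with earlier results of these data known. All 46 members were named, with coordinates for peaks within 10 kb, for genes with at least 2 peaks and for the 3 widest. Other genes were named where they start within 1 kb of a member peak or own a peak at a member TSS, and up to 10 other remodelling genes by number of peaks and then by distance. The genes named as owners of a nearest peak farther away, and Sipa1l3, were chosen after their values were seen. Alternatives were other widths, distances, windows, copy limits and gene assignments.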

Additional observations from a re-analysis of the deposited data

How the results depend on the processing

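Of 18 alternative settings over the 5 results, 15 left the value within its limit of change. The number of remodelling genes with an assigned peak, 33, was 31 for single-copy peaks or for peaks within 10 kb, 33 for peaks of at least 500 bp and 34 by the closest annotated protein-coding TSS, and it moved to 9 where at least 2 peaks were required. The number with a peak within 1 kb, 30, ran from 26 within 500 bp to 31 by position. The 5 multi-copy peaks became 1 with 75-mers and 3 with a median copy number of at least 10, by the construction of these settings, and 4 over the central 400 bp. The median width ran from 1050 to 1061 bp and the median GC content from 72.1% to 74.0%.

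No paired analysis was possible because the list combines both replicates and the results come from no test, and no replicate was left out, since the list does not separate them. Depth is unknown, so a gene without a peak is not shown to be unbound.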

Other observations

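Partners of the same complexes were looked up from 4 lists of 60 other remodelling genes, of which 32 (53.3%) had an assigned peak, 27 (45.0%) had one within 1 kb and 8 had 2 or more. The shares over all protein-coding genes were 39.0%, 24.2% and 11.0%. Of 12 NuRD partner genes, 8 (66.7%) had a peak, all within 1 kb. Of 27 partner genes of INO80, SRCAP and TIP60, 11 (40.7%) had a peak and 9 (33.3%) had one within 1 kb. Of 10 further BAF and ISWI genes, 8 had a peak and 6 had one within 1 kb. Of 11 other SNF2-family ATPases and partners of ATRX and ADNP, 5 (45.5%) had a peak and 4 (36.4%) had one within 1 kb.

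Among these partners, 4 genes had 3 peaks. Uchl5, the deubiquitinase of INO80, had its closest peak 59 bp upstream, and 2 of its 3 peaks were multi-copy. Gatad2a, a scaffold of NuRD, had 2 peaks within 1 kb, the closest 93 bp downstream. Trrap, the large scaffold of TIP60, had its closest peak 674 bp upstream. Smarca1 (Snf2l), the other ISWI ATPase, had 3 peaks that were all multi-copy, the closest 25428 bp downstream, whereas Smarca5 had its peak at the start site. Cecr2 and Chrac1, partners of ISWI enzymes, and Mbd2 and Cdk2ap1 of NuRD had 2 peaks each, the closest between 140 and 441 bp downstream. Of the genes with 1 peak, the next by distance were Ss18l1, the neuronal paralogue of Ss18, with its peak 90 bp downstream, and Rbbp4, a histone chaperone, with its peak 126 bp downstream.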
